A study of Mus musculus with 8 samples.

Results

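The genes described here build the machinery that fills, docks, fuses and recovers synaptic vesicles in nerve terminals. They are 38 genes chosen by name for their roles: vesicle membrane proteins, synaptotagmins, SNARE proteins and their partners, active zone scaffolds, the Rab3 group and endocytic proteins. Every probe whose annotated symbol was one of these genes was taken, which gave 41 probes out of 23473 on the array, with all 38 genes present among 19321 distinct gene symbols. Syt11, Rims2 and Rph3a had more than 1 probe, and the other 35 genes had 1 each. The Rims1 probe carried a gene identifier that matched no mouse entry of the reference table, so it was matched by its symbol.

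The series measured brain RNA of male C57Bl/6J mice, labelled as 9 weeks old, on 8 one-colour arrays with 1 mouse per array. Control mice (2) drank water and were sampled at day 0, and trehalose, a disaccharide of glucose, was given for 1 day (3 mice) or 10 days (3 mice). All groups were fasted for hours and perfused before the brain was taken, and mice were caged in groups whose membership the labels do not give. No water mice were sampled at 1 or 10 days, so trehalose and the time of sampling cannot be told apart in the comparisons with control.

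A nerve terminal releases transmitter when calcium entry makes vesicles fuse with the plasma membrane at the active zone. Synaptobrevin on the vesicle zips together with syntaxin and SNAP-25 on the plasma membrane to form the SNARE complex, synaptotagmin senses the calcium, and Munc13, RIM and Rab3 proteins dock and prime the vesicle beforehand. After fusion the membrane is taken back by clathrin, dynamin and their partners, and the SNARE complex is pulled apart by the ATPase NSF and its SNAP adaptors. These transcripts are made mainly by neurons, and their proteins travel to axon terminals that can lie in another region.

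All 41 probes exceeded a blank limit, set at 2 SD over the average blank spot, on each of the 8 arrays. Each array had 86.3% to 92.1% of all probes above this limit. The spot was 1.42 times the blank mean for Syn3, the dimmest probe relative to blank, and 215 times for Snap25, the brightest, as medians over arrays. Probes differ in how well they bind, so these ratios do not rank the genes. For 9 probes, those of Syn1, Syn3, Sv2c, Syt2, Syt7, Unc13a, Bsn, Pclo and the first of Syt11, the ratio was under 3, and the offset of 50 added before taking logs compresses their changes. Values below are quantile-normalized log2 intensities, and a change is a difference of group means on that scale.

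The labels give the tissue as cerebral cortex and neocortex, while the design text says that the left hemisphere was frozen for the arrays, so how much of the hemisphere was used is uncertain. Markers of cortical excitatory neurons were above the blank limit on all 8 arrays for 11 of 11 genes measured, and so were 10 of 10 general neuron markers. Markers of striatum (12 of 12 genes), hypothalamus (8 of 8), thalamus (9 of 10) and choroid plexus and ependyma (8 of 8) were above it too. So were those of hippocampus (10 of 10) and of cerebellum and hindbrain (9 of 10). Since 86.3% to 92.1% of all probes exceeded the limit on each array, these counts do not show which regions were in the sample. In bulk tissue such as this, fewer cells of a type and less RNA per cell cannot be told apart. The arrays were alike, with Pearson correlations between 0.994 and 0.998 across the 21583 tested probes, though one of them, trehalose 1 day replicate 2, had a median deviation of -0.70 from the 8-array mean over 13 striatum marker probes. The deviation was 0.27 and -0.056 on the other 1-day arrays, and 0.28 and -0.0074 in control.

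No release gene passed the test across all probes at either time or between the times. With limma and Benjamini-Hochberg adjustment over 21583 probes at a threshold of 0.05, 0 of 41 member probes were called at 1 day against control, 0 at 10 days against control and 0 at 10 days against 1 day, as were 0% of all probes in each comparison. The smallest adjusted p was 1.00 in each comparison, among members as among all probes. What the arrays do give is an interval for each change, under the processing used, and a description of how these genes varied from mouse to mouse.

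At 1 day, 16 member probes were higher and 25 lower than control, with a median change of -0.015, against -0.00030 over all tested probes. One of the 41 had an unadjusted p under 0.05, or 2.44%, against 3.65% of all probes. At 10 days 18 were higher and 23 lower, with a median of -0.012 against -0.0017 over all probes, and 2 of 41 (4.88%) had an unadjusted p under 0.05, against 2.00% of all probes. Between 10 days and 1 day 21 were higher and 20 lower, with a median of 0.0053 against -0.0015 over all probes, and 0 of 41 fell under that p, against 3.50% of all probes. The shares rest on at most 2 probes each, so they do not set the members apart from the array as a whole. The comparisons with control share the same 2 control arrays, and their values are therefore not independent of each other.

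The groups did not overlap for 6 of 41 member probes at 1 day against control (14.6%), where 18.2% of all probes did not overlap. At 10 days this held for 5 of 41 (12.2%), against 13.4% of all probes. Between the times it held for 0 of 41, against 8.39% of all probes. The range among mice of a single group was larger than the difference between group means for 39 of the 41 probes at 1 day, 37 at 10 days and 41 between the times. Over all tested probes the corresponding shares were 90.5%, 93.7% and 96.3%.

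**Figure D1:**
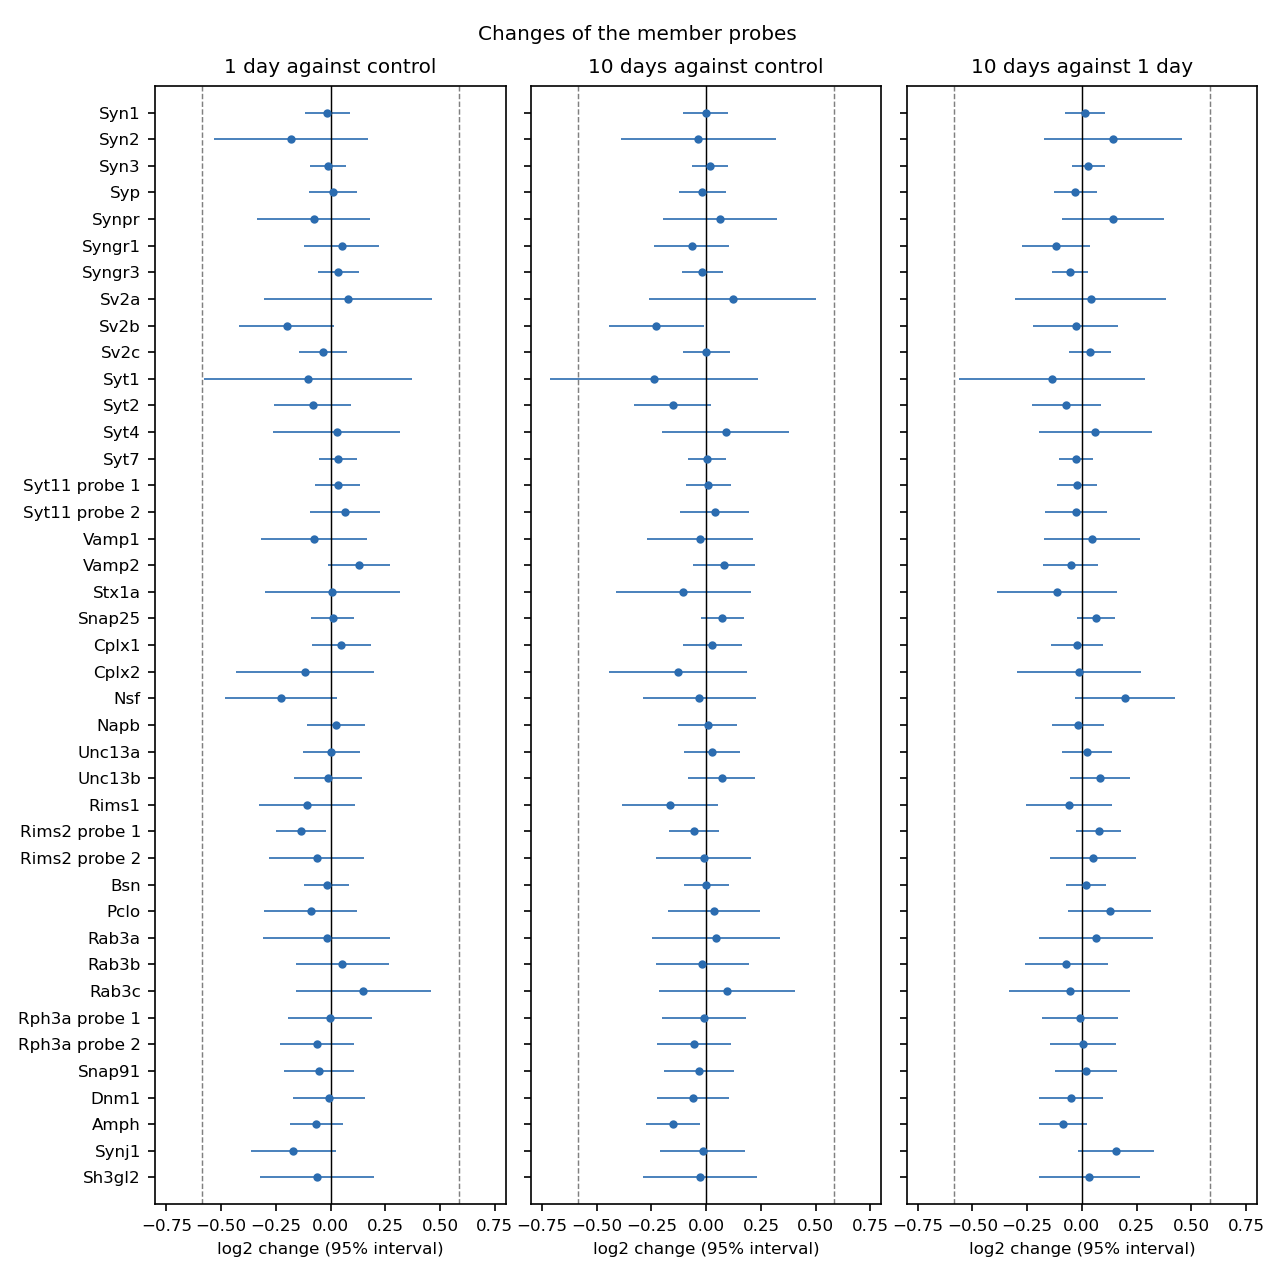
Log2 change (points) with its 95% interval (bars) for each of the 41 member probes, in rows by role, at 1 day against control, 10 days against control and 10 days against 1 day. Dashed lines mark a 1.5-fold change in either direction: the interval of Syt1 at 10 days reaches -0.71 and crosses the line, and those of the other probes stay inside it.

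The width of the intervals depended on the processing. The 95% interval of the change lay wholly within 1.5-fold for 41 of 41 member probes at 1 day, 40 at 10 days and 41 between the times, and within 1.25-fold for 31, 29 and 32. With the local background column subtracted only 13 of 41 lay within 1.5-fold in each comparison, and the largest changes in size were 1.59 at 1 day (Snap25), 1.72 at 10 days (Snap25) and 1.46 between the times (Rab3a). With the authors' processed values, 35 of 41 lay within it at 1 day, 38 at 10 days and 36 between the times. The margin on either side of the change had a median of 0.17 for both comparisons against control and 0.15 for 10 days against 1 day. Over all tested probes these margins were 0.13 and 0.12. Among the 32 probes at least 3 times the blank mean the margin against control was 0.20, and 22 of 32 intervals at 1 day and 21 of 32 at 10 days lay within 1.25-fold. For the 9 dim probes the bound is weaker than it looks, because the offset compresses them. With an offset of 16 their largest change was 0.14 in size at 1 day (Pclo) and 0.26 at 10 days (Syt2).

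Of the vesicle membrane genes, Sv2b was the one with an unadjusted p under 0.05. SV2 proteins are glycoproteins of the vesicle membrane that support its readiness to fuse, and Sv2a is the binding site of an antiepileptic drug. Sv2b measured 10.52, 10.42 and 10.51 after 10 days of trehalose, against 10.73 and 10.69 in control. After 1 day it measured 10.56, 10.66 and 10.31, against the same controls. All 6 trehalose mice lay below both control mice, and the 10-day and 1-day mice overlapped. The change was -0.23 at 10 days (SE 0.09, unadjusted p = 0.0415, limma adjusted p = 1.00) and -0.20 at 1 day (SE 0.09, unadjusted p = 0.0653), and between the times it was -0.03 (95% interval -0.22 to 0.17). Without trehalose 1 day replicate 3 the 1-day change was -0.10.

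Markers of cortical excitatory neurons were mostly lower than control too. Of their 13 probes 11 were lower at 1 day (median -0.11) and 11 at 10 days (median -0.094). Over all tested probes 10846 of 21583 were lower at 1 day and 11100 at 10 days. An unadjusted limma p under 0.05 was found for 0 and 2 of the 13 marker probes, and 0 were called. Their summed normalized intensity was 5333 to 5607 after 1 day and 5207 to 5321 after 10 days, both against 5768 to 5824 in control. Neither trehalose group overlapped control in this sum, in which bright probes weigh most. Their median deviation from the 8-array mean nearly met control at 10 days (-0.034 to 0.035, against 0.039 to 0.057 in control). After 1 day it was -0.028 to -0.014. The part of these markers in the lower Sv2b values was not tested. GABAergic interneuron markers were lower in 11 of 13 probes at 1 day (median -0.12) and 9 of 13 at 10 days (median -0.051). Striatum markers were lower in 12 of 13 at 1 day (median -0.32) and 9 of 13 at 10 days (median -0.10). Microglia markers were lower in 6 of 10 and 8 of 10. Thalamus markers were mostly higher at both times, as given below. General neuron markers were higher in 7 of 11 probes at 1 day and 8 of 11 at 10 days.

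**Figure D2:**
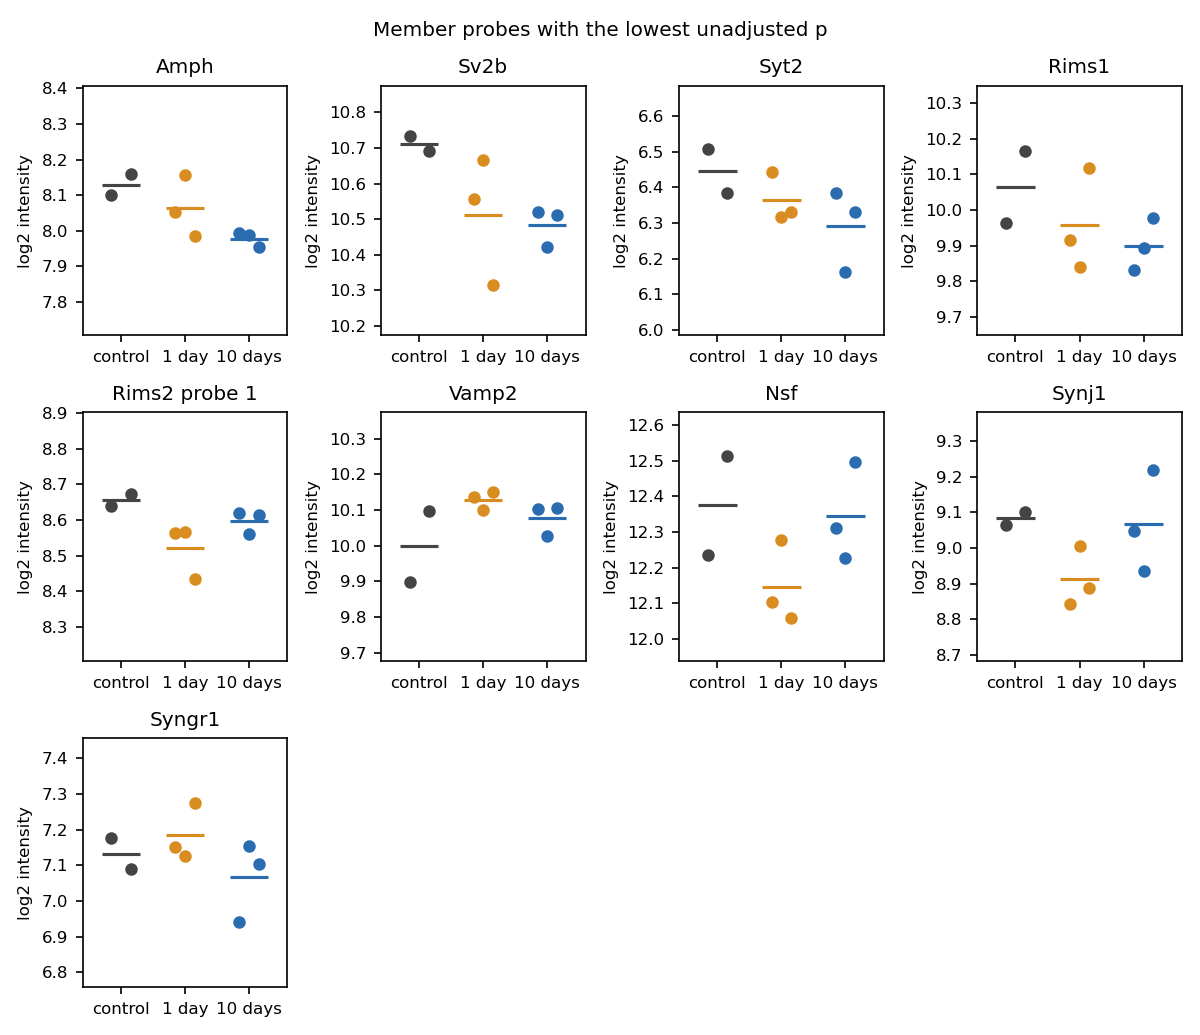
Log2 intensity of the 9 member probes with the lowest unadjusted p, 1 panel each, with a point per mouse and a line at the group mean, for control (2 mice), 1 day (3) and 10 days (3) of trehalose. Every panel spans 0.7 log2 units. Sv2b lies below both controls in all 6 trehalose mice, and Nsf and Synj1 overlap between 10 days and control.

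The paralogues of Sv2b gave overlapping groups. Sv2a measured 9.44, 9.27 and 9.49 after 1 day, against 9.25 and 9.38 in control. After 10 days it measured 9.08, 9.53 and 9.70, so the lowest and the highest of all 8 mice stood in the same group. Sv2c, which is known from basal ganglia neurons, was dim, with values between 5.97 and 6.12 on all arrays. Differences between the Sv2 genes in their change were not tested.

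Synapsins coat the vesicle surface and hold vesicles in the reserve pool. Syn2 ranged from 10.84 in a 1-day mouse to 11.38 in a 10-day mouse, a 1.45-fold spread, with control at 11.08 and 11.36 between them. Its change was -0.18 at 1 day (95% interval -0.53 to 0.17) and -0.04 at 10 days (-0.39 to 0.32). Syn1 and Syn3 had small ranges of 0.11 and 0.072, but both probes were dim. Synaptophysin (Syp), an abundant membrane protein that binds synaptobrevin, varied by only 0.13 over all mice, from 9.56 to 9.70, and its interval at 10 days ran from -0.13 to 0.09.

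Synaptoporin (Synpr), a relative of synaptophysin, measured 9.22, 9.05 and 9.37 after 1 day, against 9.37 and 9.21 in control. Its lowest value was in trehalose 1 day replicate 2, the array with the low striatum markers. Sv2c, Pclo and the second probes of Rims2 and Rph3a also had their lowest value there. With Synpr these were 5 of the 41 member probes, and the array held the lowest value of 9.54% of all tested probes. The count therefore does not set the members apart from the array as a whole. The part of the tissue's regional make-up in the values of these 5 probes was not tested. Of the synaptogyrins, small tetraspan vesicle proteins, Syngr1 measured 6.94, 7.16 and 7.10 after 10 days, against 7.15, 7.13 and 7.27 after 1 day. The groups overlapped, and the change between the times was -0.12 (SE 0.07, unadjusted p = 0.113), or -0.055 without trehalose 10 days replicate 1. Syngr3 kept within 8.41 and 8.52 on all 8 arrays.

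Synaptotagmins bind membranes, and several of them act as calcium sensors for fusion. Syt1, the main fast sensor of forebrain terminals, had the widest range of all members, 0.77 or 1.70-fold, and this range came from 1 mouse. It measured 12.37, 12.31 and 11.60 after 10 days, against 12.33 and 12.33 in control, and 12.30, 12.19 and 12.19 after 1 day. The low value was in trehalose 10 days replicate 3, and the 1-day mice all lay below control. Its change at 10 days was -0.24 (SE 0.20), with a 95% interval from -0.71 to 0.24. Without that mouse the change was 0.0082, and Syt1 was singled out here after its values were seen.

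Syt2, the fast sensor of many hindbrain and fast-firing neurons, measured 6.39, 6.16 and 6.33 after 10 days, against 6.51 and 6.38 in control. One 10-day mouse lay level with the lower control, so the groups overlapped narrowly. The change of this dim probe was -0.15 (SE 0.08, unadjusted p = 0.0795), or -0.088 without trehalose 10 days replicate 2, and with an offset of 16 it was -0.26 (95% interval -0.53 to 0.0047). Syt7, linked to slower release and vesicle supply, ranged from 6.37 to 6.45. Syt4, a form that binds calcium poorly and is induced by activity, ranged from 10.07 to 10.51 without separation of the groups.

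Syt11, a relative of Syt4, had 2 probes of very different brightness. The first, at 1.99 times the blank mean, had a change of 0.03 at 1 day and 0.01 at 10 days. The second, at 90.7 times the blank mean, had changes of 0.07 and 0.04. Both probes thus gave small changes of the same sign, none with an unadjusted p under 0.05.

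The 8 SNARE genes and their partners had 5 probes higher and 3 lower at 1 day, and 4 higher and 4 lower at 10 days. Snap25, the plasma membrane SNARE with the strongest signal over blank of the members, measured 12.65, 12.67 and 12.62 after 10 days, against 12.54 and 12.61 in control. The groups did not overlap, but the change was only 0.07 (95% interval -0.02 to 0.17, unadjusted p = 0.123). After 1 day Snap25 measured 12.54, 12.62 and 12.59, a change of 0.01 (95% interval -0.09 to 0.11).

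Vamp2, the synaptobrevin of most forebrain vesicles, measured 10.14, 10.10 and 10.15 after 1 day, against 9.90 and 10.10 in control. All 3 mice lay above both controls, by very little over the higher one. The change was 0.13 (SE 0.06, unadjusted p = 0.0651), and it was 0.03 without control replicate 1 and 0.23 without control replicate 2. Vamp1, the other synaptobrevin, ranged from 8.74 to 9.08, and both extremes were 1-day mice. Stx1a, the syntaxin that completes the complex, measured 9.22, 9.70 and 9.61 after 10 days, against 9.53 and 9.70 in control, a change of -0.10 (95% interval -0.41 to 0.20).

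Complexins clamp and promote fusion of the assembled SNARE complex. Cplx1 stayed between 11.35 and 11.53, and these extremes were the 2 control mice. Cplx2 measured 11.48 and 11.17 in the controls, and its change was -0.12 at 1 day and -0.13 at 10 days. In both genes the spread among control mice exceeded any difference between groups.

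Nsf, the ATPase that recycles SNARE proteins, measured 12.10, 12.28 and 12.06 after 1 day, against 12.23 and 12.51 in control. One 1-day mouse lay above the lower control. The change was -0.23 (SE 0.11, unadjusted p = 0.0744), and it was -0.37 without control replicate 1 and -0.088 without control replicate 2. After 10 days Nsf measured 12.31, 12.23 and 12.49, so the change between 10 days and 1 day was 0.20 (SE 0.10, unadjusted p = 0.0826), again with overlap, and 0.12 without trehalose 10 days replicate 3. Its adaptor Napb, the brain form of SNAP, stayed between 11.67 and 11.83 in all mice.

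Active zone genes had more probes below control at 1 day (6 of 7) than at 10 days (3 of 7), with medians of -0.063 and 0.00048. At 10 days against 1 day 6 of 7 were higher, with a median of 0.051; the same 1-day arrays enter both comparisons. RIM proteins tether vesicles and calcium channels at the release site. The first Rims2 probe measured 8.56, 8.57 and 8.43 after 1 day, against 8.64 and 8.67 in control. All 3 mice lay below both controls, and the change was -0.13 (SE 0.05, unadjusted p = 0.0279, limma adjusted p = 1.00). The cortical excitatory markers given beside Sv2b were lower in the same mice, while general neuron markers were higher in 7 of 11 probes. The part of either in the Rims2 values was not tested.

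The second Rims2 probe measured 7.75, 7.56 and 7.62 after 1 day, against 7.69 and 7.73 in control, with a change of -0.06 (95% interval -0.28 to 0.15). It had the same sign as the first probe, but its groups overlapped. At 10 days the first probe had a change of -0.06 and the second one of -0.01. Rims1 measured 9.83, 9.89 and 9.98 after 10 days, against 9.96 and 10.17 in control, a change of -0.16 (SE 0.09, unadjusted p = 0.119). This change was -0.064 without control replicate 2 and -0.27 without control replicate 1.

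Munc13 proteins open syntaxin and prime vesicles, and bassoon (Bsn) and piccolo (Pclo) are giant scaffolds of the active zone. Unc13a stayed between 6.53 and 6.67 and Bsn between 6.19 and 6.30, near the blank level. Unc13b measured 7.34, 7.24 and 7.09 after 10 days, against 7.14 and 7.16 in control, with both the highest and the lowest mouse at 10 days. Pclo ranged from 6.55 to 6.84, with a change between the times of 0.13 (95% interval -0.06 to 0.32).

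Rab3 proteins are small GTPases on the vesicle that take part in docking, and rabphilin (Rph3a) is an effector that binds them. Rab3a measured 10.80, 11.06 and 11.28 after 10 days, against 10.97 and 11.03 in control, so its 10-day mice lay on both sides of control. Rab3c differed by 0.50 between the controls (9.85 and 10.34), and every trehalose mouse lay between them. Rab3b kept within 8.57 and 8.82. The first Rph3a probe had a change of -0.01 at 10 days and the second one of -0.06, and none of the 5 probes of this group had an unadjusted p under 0.05.

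Endocytosis genes were lower than control for 5 of 5 probes at both times, with medians of -0.063 at 1 day and -0.033 at 10 days. Over all tested probes 10846 of 21583 were lower at 1 day and 11100 at 10 days. By mouse the groups overlapped. The list's median deviation from the 8-array mean was -0.073 to 0.055 after 1 day and -0.078 to 0.10 after 10 days. In control it was 0.041 to 0.088. The counts of 5 are small and share the same controls, and 1 of the 5, Amph at 10 days, had an unadjusted p under 0.05. Amphiphysin (Amph), which senses membrane curvature and brings dynamin to clathrin-coated pits, measured 7.99, 7.99 and 7.95 after 10 days, against 8.10 and 8.16 in control. All 10-day mice lay below both controls, with a change of -0.15 (SE 0.05, unadjusted p = 0.0223, limma adjusted p = 1.00). The cortical excitatory markers were lower in these mice too, while general neuron markers were higher in 8 of 11 probes. The part of either in the Amph values was not tested. After 1 day Amph measured 8.05, 8.16 and 7.99, overlapping control, and the change between the times was -0.09 (SE 0.05, unadjusted p = 0.107), or -0.041 without trehalose 1 day replicate 2.

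Synaptojanin (Synj1), a lipid phosphatase that helps strip the clathrin coat, measured 8.84, 9.01 and 8.89 after 1 day, against 9.07 and 9.10 in control. All 1-day mice lay below both controls, and the change was -0.17 (SE 0.08, unadjusted p = 0.0757). After 10 days Synj1 measured 9.05, 8.94 and 9.22, a change from 1 day of 0.16 (SE 0.07, unadjusted p = 0.0724) with overlap. Without trehalose 10 days replicate 3 that change was 0.08.

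Dynamin (Dnm1), which pinches off the vesicle, ranged from 7.80 to 8.03. The clathrin adaptor Snap91 ranged from 8.59 to 8.77. Endophilin (Sh3gl2), a partner of synaptojanin and dynamin, measured 9.25, 9.27 and 9.63 after 10 days, against 9.41 and 9.41 in control. The 10-day mice again lay on both sides of control, and its interval at 10 days ran from -0.29 to 0.23.

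**Figure D3:**
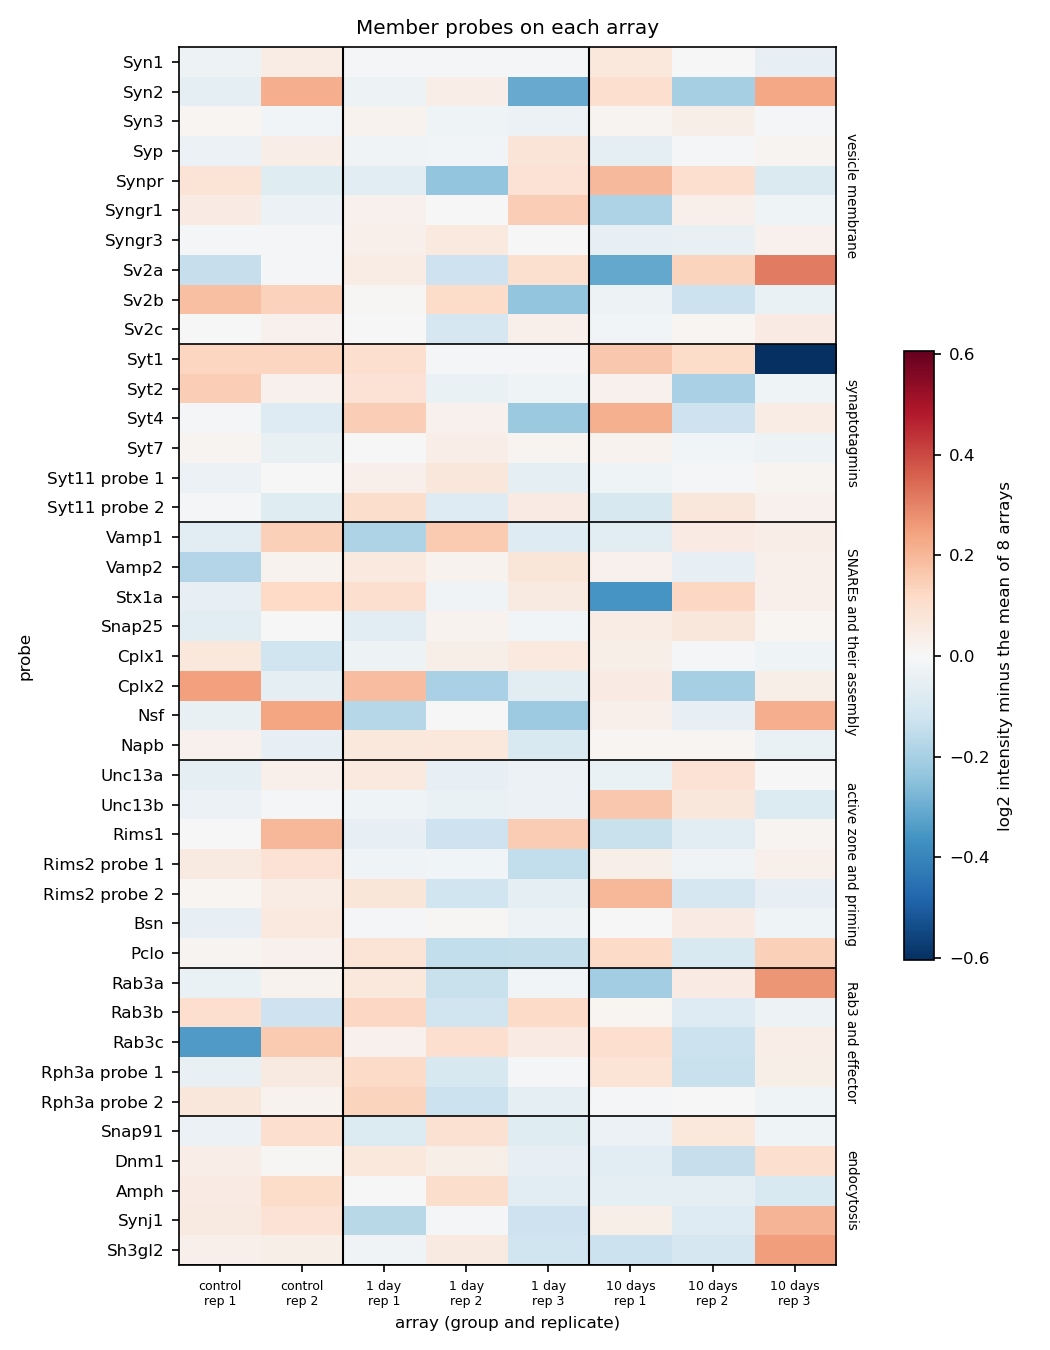
Log2 intensity of the 41 member probes minus the mean over 8 arrays (colour, red higher and blue lower), with arrays in columns ordered by time and probes in rows by role. The darkest cell is Syt1 in 10 days replicate 3, and Sv2a, Rab3a and Sh3gl2 are low in 10 days replicate 1 and high in 10 days replicate 3.

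Several members had their lowest or highest value on the same array. Trehalose 10 days replicate 1 held the lowest value of 9 member probes, which were Syp, Syngr1, Syngr3, Sv2a, Stx1a, Rims1, Rab3a, Sh3gl2 and the second Syt11 probe. These were 9 of 41 members, and the array held the lowest value of 13.4% of all tested probes. Trehalose 10 days replicate 3 held the highest value of 8, among them Syn2, Sv2a, Rab3a, Synj1 and Sh3gl2, and the highest of 15.2% of all tested probes. Trehalose 1 day replicate 3 held the lowest of 8, among them Syn2, Sv2b, Syt4, Nsf and Napb, and the lowest of 13.6% of all tested probes. Control replicate 2 held the highest value of 7 member probes and of 11.5% of all tested probes. These were the largest such counts, and every array held at least 3 lowest and at least 3 highest values of the members. Neither shared variation among the members nor the causes of these extremes were tested.

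The members varied more within groups than the average probe. The residual SD, pooled over the 3 groups, had a median of 0.091 over the 41 probes, with a range from 0.025 for Syn3 to 0.27 for Syt1, against a median of 0.064 over all tested probes. The part of probe brightness in this difference was not tested. The same median was 0.087 over the further release genes described below, 0.12 over general neuron markers and 0.095 over astrocyte markers. It was 0.055 over cerebellum and hindbrain markers. A higher median than that of all probes was thus not particular to the members. The set's median deviation from the 8-array mean lay between -0.030 and 0.025 after 1 day, between -0.013 and 0.015 after 10 days, and between 0.00031 and 0.026 in control. A shift of the whole set was not tested.

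**Figure D4:**
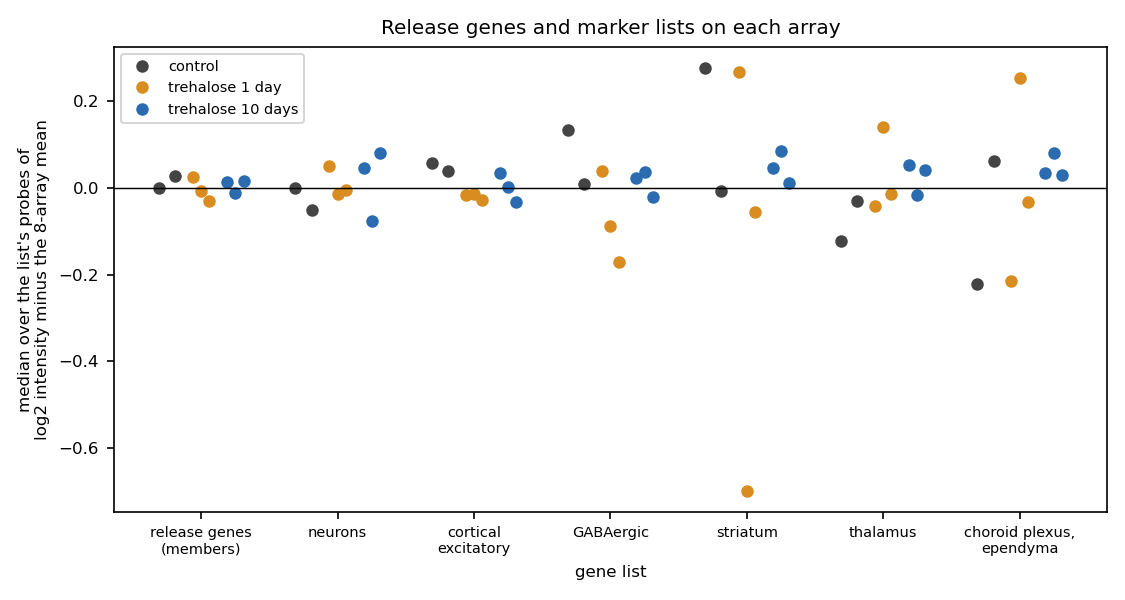
Median over the probes of each list of log2 intensity minus the 8-array mean, with a point per mouse, for the release genes and 6 marker lists. The release genes stay between -0.030 and 0.026 on all arrays, and the striatum list reaches -0.70 in 1 mouse of the 1-day group.

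Other genes of the release cycle were looked at for comparison. Of 58 further release genes 53 were on the array, with 59 tested probes, and limma called 0 of them in each comparison. At 1 day 25 of the 59 were higher and 34 lower than control (median -0.012), at 10 days 30 higher and 29 lower (median 0.00029), and between the times 31 higher and 28 lower (median 0.0065). An unadjusted p under 0.05 was found for 3, 4 and 0 of the 59 in these comparisons, against 3.65%, 2.00% and 3.50% of all probes. The shares against control were above those of all probes at both times, but rest on only 3 and 4 probes. Slc17a6 was among them at both times and Slc17a7 at 10 days, and both are also in the marker lists.

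The vesicular glutamate transporters, which load vesicles, had some of the lowest p. Slc17a6, the form of thalamic and other subcortical neurons, measured 9.33, 9.74 and 9.38 after 1 day, against 8.91 and 9.02 in control. After 10 days it measured 9.37, 9.23 and 9.34, and all 6 trehalose mice lay above both controls. Its change was 0.52 at 1 day (SE 0.12, unadjusted p = 0.00222, limma adjusted p = 1.00) and 0.35 at 10 days (SE 0.12, unadjusted p = 0.0168). Thalamus markers, of which Slc17a6 is one, were higher in 9 of 11 probes at 1 day (median 0.16) and 11 of 11 at 10 days (median 0.15). Their summed intensity was 3734 to 5132 after 1 day and 4077 to 4565 after 10 days, both against 3472 to 3913 in control, and their part in the Slc17a6 values was not tested. Slc17a7, the form of cortical neurons, measured 9.36, 9.33 and 9.41 after 10 days, against 9.48, 9.48 and 9.41 after 1 day, a change of -0.09 (SE 0.05, unadjusted p = 0.0748). Control measured 9.57 and 9.44, above all 10-day mice, and the change at 10 days against control was -0.14 (SE 0.05, unadjusted p = 0.0236, limma adjusted p = 1.00). The cortical excitatory markers, of which Slc17a7 is one, were lower in the same mice, and their part was not tested.

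Napa, an adaptor of Nsf, had a change of 0.18 at 10 days (SE 0.06, limma unadjusted p = 0.0200). Syt12 had one of 0.14 at 1 day (SE 0.05, limma unadjusted p = 0.0246). The second probe of the calcium channel gene Cacna1a had one of 0.08 between the times (SE 0.04, limma unadjusted p = 0.0954), and limma adjusted p was 1.00 for all of these. Syt12 had a change of 0.088 without control replicate 2, and Cacna1a one of 0.043 without trehalose 10 days replicate 1. Of 24 further endocytosis genes 23 were on the array, with 27 tested probes, of which limma called 0 and none had an unadjusted p under 0.05. At 1 day 9 were higher and 18 lower than control, at 10 days 13 higher and 14 lower, and between the times 16 higher and 11 lower. The lowest p in this list belonged to the second probe of Synj2, a dim probe with 0.14 at 1 day and 0.13 at 10 days, to Cltb, a clathrin light chain, with 0.09 at 1 day, to Necap1 with 0.14 at 10 days, and between the times to Sh3gl1 with -0.16 and Eps15 with 0.17. Leaving out 1 array moved some of these by over 1.5 times. Synj2 at 1 day was 0.082 without trehalose 1 day replicate 3, Cltb was 0.049 without control replicate 2, and Eps15 was 0.087 without trehalose 1 day replicate 3.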

How the data were processed

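Brain RNA of 8 mice was measured on 8 arrays. Per the labels' protocols, Trizol-extracted total RNA was turned into amino allyl aRNA and then coupled to Cy5. Per the file headers, each scanner file holds a spot intensity (the median of its pixels in 1 channel, with readings at 3 gains joined through fitted lines), the background around the spot, and quality flags. A second table deposited by the authors holds processed intensities with a median of 25 per array; how it was made is not given in the sources used here, and it served as an alternative. No slide or scan date was given to test as a batch.

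Intensities were corrected by normexp (offset 50, on all spots), taken to log2 and quantile normalized with limma 3.58.1 in R 4.3.3. The local background column was not subtracted, since it correlated with the spots at 0.943 to 0.985. Spots with a failed flag were set to missing. A probe was tested if at least 2 arrays put it over the blank limit (average blank plus 2 SD), which kept 21583 of 23473. One limma fit held the 3 groups (5 residual degrees of freedom), with Benjamini-Hochberg adjustment over all tested probes and a threshold of 0.05. Symbols came from the platform annotation, updated through gene identifiers. The fit was run on simulated arrays drawn independently of each other, and had to return the changes set there with little median error. Variation shared between arrays was not simulated, so this run does not show what could be detected in these data. The labels do not say that mice came from separate litters or cages. Each p-value sets a group difference against the spread among these mice, taken as independent. If cages followed the groups, cage and treatment could not be told apart. The members, lists and tests were chosen with earlier results of these data known. Members were named with values in every array where the unadjusted p was under 0.05 or among the 4 lowest of a comparison. From the wider lists the 2 lowest of each comparison were named. Other members are given by role, and a few with single array values, such as Syt1 and Snap25, were picked after their values were seen.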

Additional observations from a re-analysis of the deposited data

How the results depend on the processing

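Under 10 other settings and 8 fits that each left out 1 array, limma called 0 of the member probes in all 3 comparisons. Over all probes the count was 1 with trend and robust variances at 10 days against control and 1 at 10 days against 1 day, in both cases Il1rl2. It ranged from 0 to 2 at 1 day and from 0 to 2 at 10 days when arrays were left out, and was 0 between the times. The 2 were Sult4a1 and Ifitm3, called without control replicate 1; these genes were named after their values were seen. The members' median change ranged without single arrays from -0.041 (without control replicate 1) to -0.0058 at 1 day, from -0.027 to 0.0047 at 10 days, and from -0.010 to 0.013 between the times. With the authors' processed table it was -0.088 at 1 day, 0.016 at 10 days and 0.087 between the times. With the local background column subtracted it was 0.0077 at 1 day and -0.064 between the times, and the sign of 20, 16 and 12 of the 41 member probes turned at 1 day, at 10 days and between the times. In that setting the 1-day changes of the first Rims2 probe, Vamp2, Nsf, Slc17a6 and Cltb turned to 0.12, -0.13, 0.83, -0.58 and -0.17. Between the times those of Nsf, Slc17a7 and the second Cacna1a probe turned to -0.062, 0.081 and -0.19. The cause of these turns was not tested. All 8 turns came from the setting with local background subtracted, out of 24 such changes, which cover the genes with the lowest p in each comparison. Across all settings and fits there were 432 such values, and none of the others changed sign. Over all 41 member probes, leaving out 1 array turned up to 11 signs at 1 day, 13 at 10 days and 9 between the times. Arrays with the same replicate number had correlated deviations over 0.1 in 6 of 7 pairs (range -0.025 to 0.26), and 7 of 8 arrays correlated best with their own number, a hint from the data and not the design. A number in the array descriptions also ran from 1 to 8 in order of the replicate number, and replicate 3 had no control. With the replicate number as a block 0 member probes were called, and their median change was -0.011 at 1 day, -0.018 at 10 days and 0.0053 between the times. In that setting 5 of the 41 signs turned at 1 day, 4 at 10 days and 0 between the times. The number of arrays and, for dim probes, signal near the blank spots limit what could be detected.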
